A study of Mus musculus with 2 samples.

Results

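The glucocorticoid receptor axis was described here through 10 genes of the mouse fetal lung: the receptors Nr3c1 and Nr3c2, the enzymes Hsd11b1 and Hsd11b2, and the hormone-responsive genes Fkbp5, Tsc22d3, Per1, Zbtb16, Klf9 and Sgk1. The members were chosen by name, with earlier results of these data known, and all 10 were among the 32285 gene features of both expression matrices. Peaks whose nearest edge lay within 100 kb of an annotated start of a member were taken with them, which gave 261 joined regions of 101838 in all. Each library was a single-nucleus multiome, in which RNA molecules (unique molecular identifiers, UMIs) and Tn5 transposition events in open chromatin were counted in the same nuclei.

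The lungs came from wild-type C57BL/6J fetuses at gestation day 18. The PBS library pooled 9 fetuses of a PBS-treated mother, and the OVA library pooled 8 fetuses of a mother with ovalbumin-induced asthma. Mothers in the OVA group were sensitized with ovalbumin in alum before mating and received ovalbumin intranasally during pregnancy, while mothers in the PBS group received alum in PBS and intranasal PBS, so that alum was common to both. The nuclei came from a mix of sorted fractions, namely group 2 innate lymphoid cells (ILC2), CD45+ leukocytes and EpCAM+ epithelium, so the number of nuclei of each type describes the sort and not the lung. With 1 library and 1 mother per group there was no replicate and no test was made: every interval is an exact 95% interval that covers counting error only, and each OVA to PBS ratio compares these libraries, not the conditions.

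Glucocorticoids cross the cell membrane and bind the glucocorticoid receptor, the product of Nr3c1, which is held in the cytosol by Hsp90-containing chaperone complexes until the hormone arrives. The bound receptor moves to the nucleus, binds glucocorticoid response elements and raises or lowers transcription, and among the genes it raises are those of its own restraint. The mineralocorticoid receptor (Nr3c2) binds the same hormones, and the 11beta-hydroxysteroid dehydrogenases set how much active hormone a cell sees, HSD11B1 by regenerating it and HSD11B2 by inactivating it. In the fetal lung the rise of glucocorticoid late in gestation is known to promote thinning of the mesenchyme and maturation of surfactant-producing cells.

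Nuclei were assigned to types with marker genes: a nucleus was gated when it held at least 3 markers of a type and at least 2 more than of any other type. The PBS library kept 4572 of 8019 barcodes and the OVA library 5246 of 5960, and 2464 and 3425 of these were gated. ILC2-gated nuclei numbered 349 in PBS and 522 in OVA. The other gates held 321 and 666 monocyte/macrophage-gated, 470 and 327 alveolar type 2 (AT2)-gated, 224 and 317 alveolar type 1 (AT1)-gated, 857 and 1198 fibroblast-gated, 88 and 134 myofibroblast-gated, and 56 and 89 pericyte-gated nuclei. An eighth gate, mast cell or basophil, had 43 nuclei in PBS and 89 in OVA and was kept out of rankings and counts. Each gate had at least 9 of its own markers more than 2-fold above the other gates in both libraries, the exceptions being Vcan and Fn1 for monocytes/macrophages, Npnt for fibroblasts, Aspn and Mylk for myofibroblasts and Fcer1a for mast cells. The same markers set the gates, so their enrichment follows from the gating and is not an independent check of it. No mesenchymal fraction was named in the sort, yet fibroblast-gated nuclei were the most numerous of the gates in both libraries. The PBS library held 11473351 UMIs and 66520943 transposition counts, and the OVA library 13774959 and 51197323. The libraries differed in quality: mitochondrial genes held 45.2% of UMIs in PBS and 29.2% in OVA, the median kept nucleus had 690 and 1265 UMIs from nuclear genes, and 54 barcodes occurred in both libraries. Levels are therefore given as CPM, the UMIs of a gene per 1000000 UMIs from nuclear genes, with mitochondrial genes left out of the total. Accessibility is given in normalised counts, the transposition counts of a region per 1000000 counts in all joined regions of the same gate and library. On this scale the median gene was still higher in OVA by a log2 ratio of 0.05 (fibroblast gate) to 0.19 (monocyte/macrophage gate), and this shift bears on every ratio below.

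Promoter sequences were searched for the full glucocorticoid response element and for the E-box. RefSeq promoters (GRCm38.p6, 250 bases before to 50 after each start) were at hand for 7 of the 10 genes, 15 promoters in all. The classical full glucocorticoid response element, searched as AGAACA and TGTTCT with any 3 bases between them, occurred in 1 of these 15, a Sgk1 promoter, and in 3 of all 32851 promoters (0.00913%). The E-box CACGTG, the element bound by the circadian activators CLOCK and BMAL1, occurred in promoters of Fkbp5, Per1 and Sgk1 and in 7.15% of all 32851. Both motifs are palindromes, so each match stands for both strands, and a match is a match of letters and not a measured binding site. The Sgk1 promoter on the plus strand of chr10:21993640-21993939 is shown because it holds the full element, in capitals, beginning 189 bases before the start.
Sgk1: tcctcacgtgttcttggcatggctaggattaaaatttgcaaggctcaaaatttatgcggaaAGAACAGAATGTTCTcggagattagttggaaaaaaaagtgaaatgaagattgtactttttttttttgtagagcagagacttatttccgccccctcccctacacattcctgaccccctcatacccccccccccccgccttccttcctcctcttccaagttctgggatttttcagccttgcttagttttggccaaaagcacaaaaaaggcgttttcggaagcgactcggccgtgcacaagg
The Per1 promoter on the plus strand of chr11:69098699-69098998 is shown beside it for its E-box, in capitals, beginning 166 bases before the start.
Per1: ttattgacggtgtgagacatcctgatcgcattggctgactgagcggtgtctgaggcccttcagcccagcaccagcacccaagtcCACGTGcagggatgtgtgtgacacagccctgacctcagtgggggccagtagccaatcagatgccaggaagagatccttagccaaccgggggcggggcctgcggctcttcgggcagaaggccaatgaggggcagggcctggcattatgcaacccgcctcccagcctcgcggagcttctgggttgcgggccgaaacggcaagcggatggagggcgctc

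**Figure D1:**
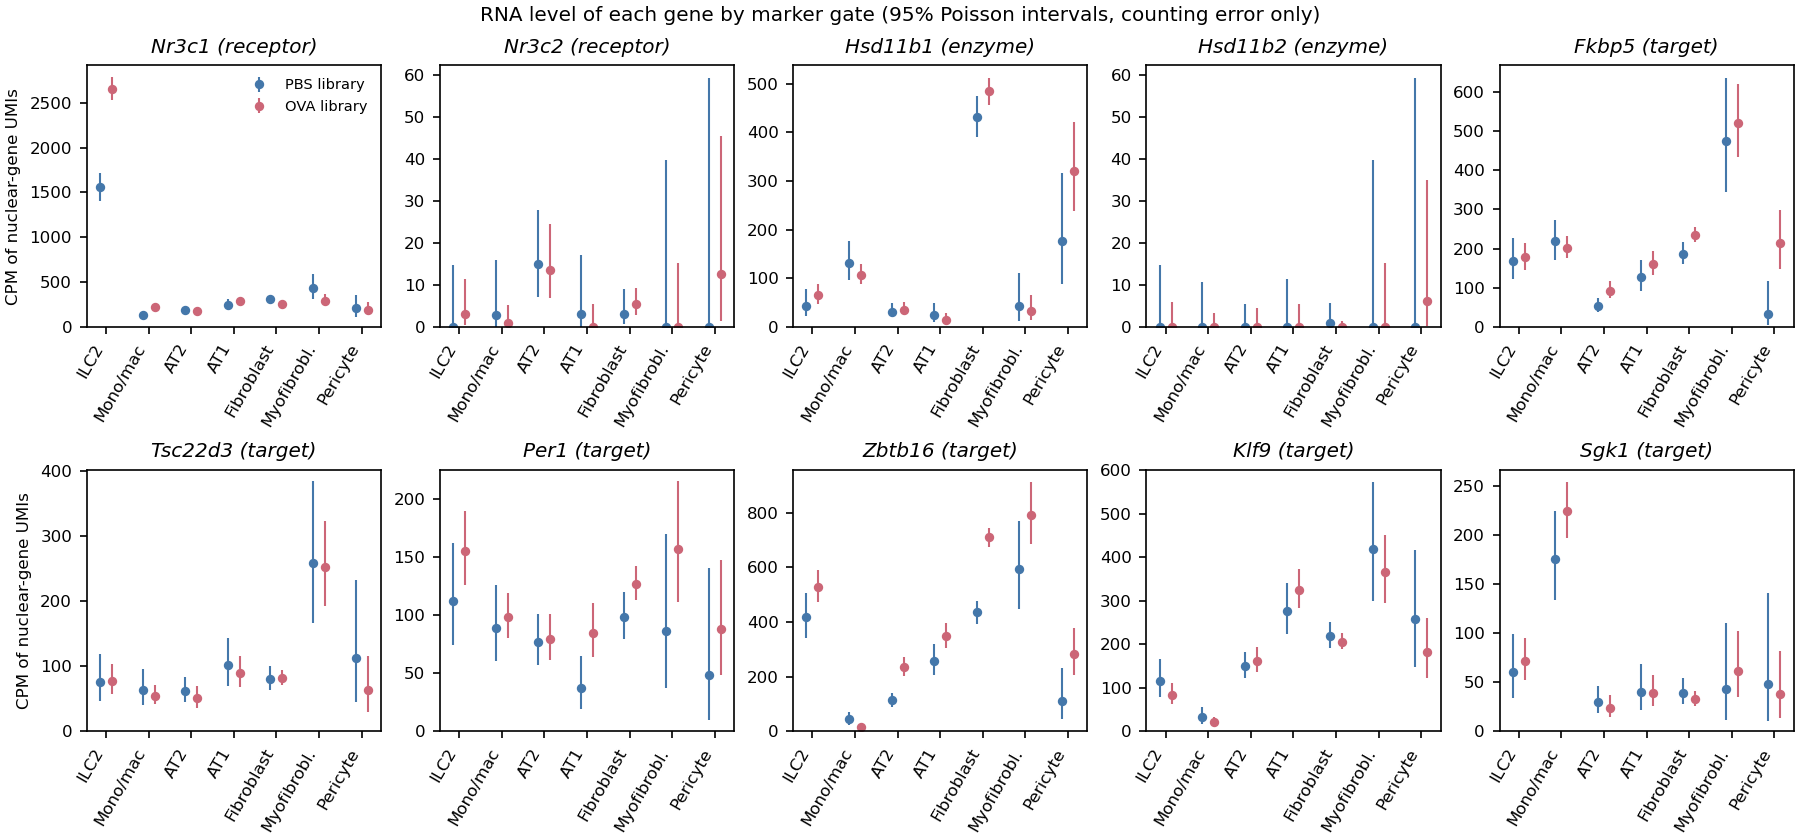
Level of each glucocorticoid receptor axis gene (CPM over nuclear-gene UMIs) in the 7 gates, with PBS and OVA libraries side by side and bars for exact 95% Poisson intervals. Nr3c1 was highest in ILC2-gated nuclei (1557 CPM in PBS and 2654 CPM in OVA), Hsd11b1 in fibroblast-gated nuclei and Sgk1 in monocyte/macrophage-gated nuclei.

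Nr3c1, the glucocorticoid receptor gene (chr18:39410545-39519421, minus strand, mm10), was highest in ILC2-gated nuclei in both libraries. ILC2-gated nuclei held 389 Nr3c1 UMIs in PBS, 1557 CPM (1406–1719), and 1673 UMIs in OVA, 2654 CPM (2528–2784). No other ranked gate came near this level in either library. The next gate was the myofibroblast gate in PBS, at 431 CPM (40 UMIs), and the AT1 gate in OVA, at 295 CPM (195 UMIs), so ILC2-gated nuclei stood 3.62-fold (log2 1.85, 1.38–2.36) and 8.99-fold (log2 3.17, 2.95–3.39) above the next. As background, 30.9% of the 3932 genes ranked in PBS and 29.5% of the 6603 ranked in OVA had a highest gate at least 2-fold above the next, and 14.1% and 15.1% were highest in the ILC2 gate.

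Below the ILC2 gate the order of Nr3c1 was loose. Fibroblast-gated nuclei had 313 CPM in PBS and 253 CPM in OVA, AT1-gated nuclei 249 and 295 CPM, pericyte-gated nuclei 209 and 194 CPM, AT2-gated nuclei 188 and 182 CPM, and monocyte/macrophage-gated nuclei 138 and 221 CPM. No pair of neighbours in that order differed beyond counting error in either library, but some gates farther apart had intervals that did not overlap. In PBS these were fibroblast (279–351 CPM) against AT2 (157–225) and monocyte/macrophage (102–183). In OVA fibroblast (233–274 CPM) and AT2 (154–214) did not overlap. The small mast cell or basophil gate lay above every gate of that order, at 1042 CPM (718–1464, 33 UMIs) in PBS and 1157 CPM (960–1384, 120 UMIs) in OVA. Its nuclei also carried the ILC2 marker list, at 4865 and 7204 CPM (Ret and Il17rb at 0 in both libraries), and the part of this in the Nr3c1 level was not tested.

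The same contrast appeared nucleus by nucleus. After each nucleus was thinned to 500 UMIs, 45.9% (38.6–53.4) of 185 PBS and 70.1% (65.7–74.3) of 455 OVA ILC2-gated nuclei held an Nr3c1 UMI, with 164 and 67 nuclei too shallow to enter, against 58.5% and 84.5% unthinned. The thinned share lay between 6.30% and 13.6% in the other ranked gates, lowest in monocyte/macrophage-gated nuclei (median depth 915 and 1405), and was 33.3% and 31.4% in the mast cell or basophil gate. For free RNA, Sftpc, a surfactant gene of AT2 cells, gave a UMI in 22.2% of PBS and 16.7% of OVA ILC2-gated nuclei, whose median depth was 517 and 957 nuclear-gene UMIs, and in 98.2% and 97.0% of AT2-gated nuclei.

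Between libraries, Nr3c1 was higher in OVA than in PBS in ILC2-gated nuclei by a log2 ratio of 0.77 (0.61–0.93), and the ratio ran from 0.62 to 1.01 under the processing alternatives. Monocyte/macrophage-gated nuclei also had a higher level, with a log2 ratio of 0.68 (0.23–1.16) on 48 and 238 UMIs. Their thinned share was 6.30% in PBS and 7.37% in OVA. The summed marker list of that gate was 6902 and 6935 CPM, but single markers moved both ways. C1qa went from 141 to 24.1 CPM, Atp6v0d2 from 175 to 50.1 CPM and Fn1 from 2170 to 2910 CPM, and their part in the ratio was not tested. Fibroblast-gated nuclei went the other way, at -0.31 (-0.51 to -0.11), but with all gene UMIs in the denominator the interval there included 0 (-0.12, -0.32 to 0.08). The summed monocyte/macrophage list, which holds Vcan and Fn1, went from 6287 to 8734 CPM in these nuclei. AT2-gated nuclei (-0.05, -0.40 to 0.31) and AT1-gated nuclei (0.24, -0.14 to 0.64) had intervals that included 0. In the ILC2 gate the interval of 26.1% of 1763 genes lay above 0, and the Nr3c1 ratio was at percentile 90.2 of those genes. Along with it in that gate, mitochondrial UMIs went from 40.9% to 30.1% and the summed level of the ILC2 markers from 17627 to 20724 CPM. The summed mast cell list, part of which ILC2 also express, went from 1485 to 2234 CPM (Fcer1a at 0 in both), the AT2 list from 1032 to 552 CPM, and the T cell list was 324 and 263 CPM with Cd3d, Cd4 and Cd8a at 0. The part of these in the Nr3c1 ratio was not tested.

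Nr3c1 has several alternative first exons, and the most upstream of its promoters is known for its use in lymphoid cells. UMIs here do not show which start a transcript came from, but the chromatin separated the starts. Of 18 Nr3c1 regions with at least 100 transposition counts over the gates, 5 were open in ILC2-gated nuclei, meaning at least 2-fold above the other gates together in both libraries, against 9.17% of all 80013 regions tested. One of these 5, chr18:39519115-39520065, covered the outermost annotated start (transcript Nr3c1-209, 39519421, outside the basic annotation set), 28.4 kb upstream of the nearest start in that set. ILC2-gated nuclei had 206 counts there in PBS and 280 in OVA, 72.0 and 64.9 normalised counts, 17.9-fold and 22.9-fold above the other gates. The other 6 ranked gates held 0 to 31 counts each, and the mast cell or basophil gate 20 and 25.

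A second region, chr18:39496271-39497163, lay in an intron 5.6 kb from the nearest start in the basic set. ILC2-gated nuclei had 74 and 95 counts there, 25.9 and 22.0 normalised counts, while the other 6 ranked gates held 0 to 6 counts each, which gave 71.7-fold and 30.5-fold. Neither region differed between libraries beyond counting error, with OVA to PBS log2 ratios of -0.15 (-0.41 to 0.12) and -0.23 (-0.69 to 0.23). At the start at 39490674 the ILC2 gate was not set apart: it had 106 normalised counts in both libraries, and the other ranked gates had 88.2 to 133 normalised counts.

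**Figure D2:**
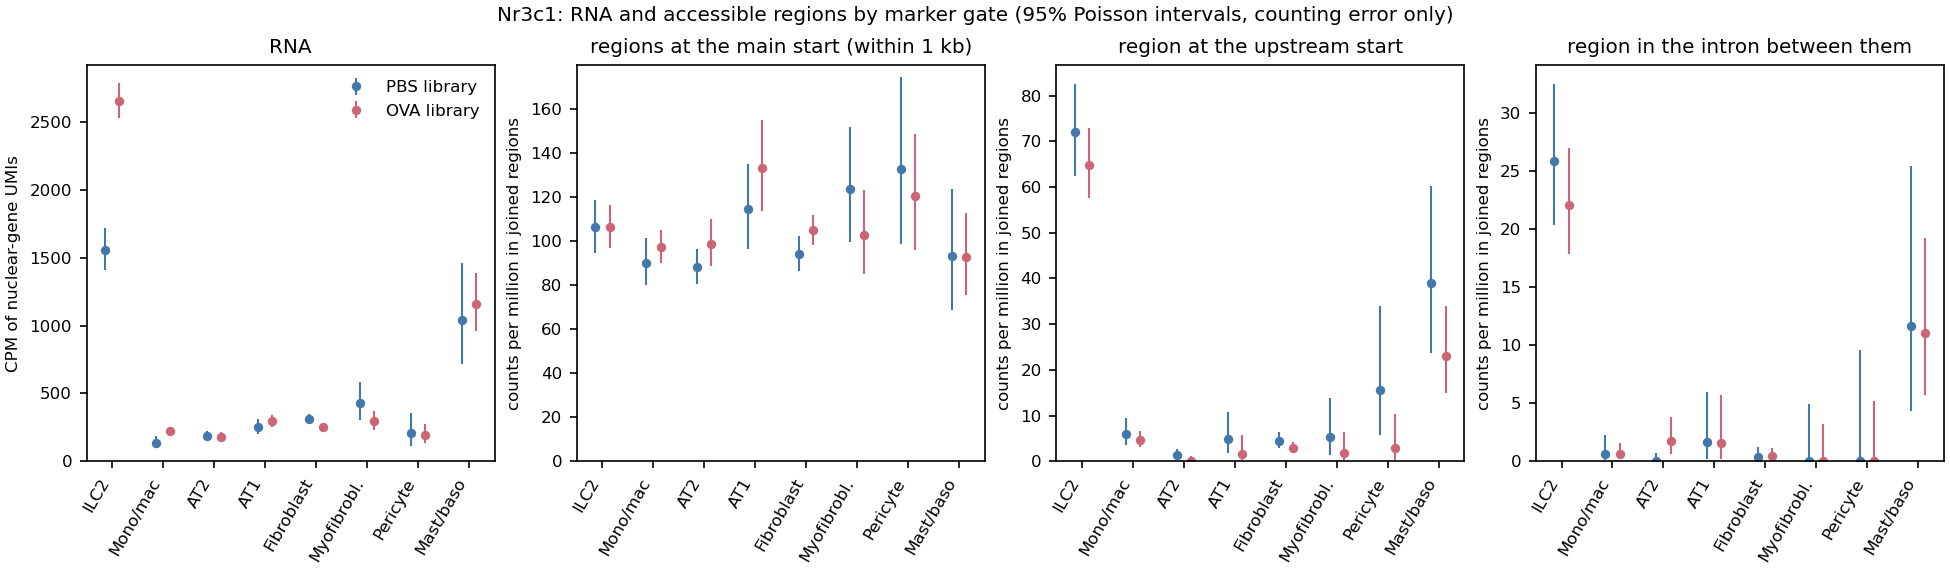
Nr3c1 in the 7 ranked gates and the mast cell or basophil gate: RNA (CPM of nuclear-gene UMIs) and normalised transposition counts at the main start, at the upstream start and in the intron between them, with blue points for PBS, red points for OVA and bars for exact 95% Poisson intervals. The ILC2 gate stood above the other ranked gates in RNA, at the upstream start (72.0 normalised counts in PBS and 64.9 in OVA) and in the intron, and lay among them at the main start.

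Summed over all 25 regions within 100 kb, Nr3c1 accessibility in ILC2-gated nuclei was 268 normalised counts in PBS and 282 in OVA, a log2 ratio of 0.07 (-0.06 to 0.21) beside the RNA ratio of 0.77. Small ratios above 0 were found in fibroblast-gated (0.21, 0.10–0.33), AT2-gated (0.22, 0.07–0.37) and monocyte/macrophage-gated nuclei (0.20, 0.04–0.35). In the fibroblast gate accessibility and RNA thus had opposite signs. A fibroblast region at chr18:39581571-39582609 went from 90 to 225 counts, a log2 ratio of 0.68 (0.32–1.05).

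Across the 7 gates and both libraries, 14 points that share libraries, gates and depth, the genes whose levels followed Nr3c1 most closely were Zap70 (Pearson r = 0.97) and Skap1 (0.96). Zap70 encodes a kinase, and Skap1 an adaptor, of antigen receptor signalling in lymphocytes, and Skap1 was among the markers that set the ILC2 gate. These correlations are descriptions over 4671 genes, carry no p-value and were led by the ILC2 gate.

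Nr3c2, the mineralocorticoid receptor gene (chr8:76899442-77245012, plus strand), was sparse. AT2-gated nuclei held 10 UMIs in PBS (15.1 CPM) and 11 in OVA (13.6 CPM), fibroblast-gated nuclei 3 and 13, and the other ranked gates 0 to 2. In OVA the AT2 level could not be told from that of the pericyte gate, 12.5 CPM on 2 UMIs (log2 0.12, -2.08 to 3.33). Its start was more open in alveolar epithelium: the regions at 76902288 had 81.1 and 75.7 normalised counts in AT2-gated and 81.6 and 72.9 in AT1-gated nuclei, against 33.4 to 62.5 in the other gates. Of the 2 Nr3c2 regions tested, 0 were at least 2-fold above the other gates.

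Hsd11b1, which encodes the dehydrogenase that regenerates active glucocorticoid (chr1:193221634-193264075, minus strand), was a fibroblast gene among these gates. Fibroblast-gated nuclei held 417 UMIs in PBS (431 CPM) and 1162 in OVA (484 CPM). Pericyte-gated nuclei came next with 177 CPM (11 UMIs) and 320 CPM (51 UMIs), from which the fibroblast gate differed by a log2 ratio of 1.29 (0.43–2.30) in PBS and 0.60 (0.19–1.03) in OVA. ILC2-gated nuclei had 44.0 and 65.0 CPM, and monocyte/macrophage-gated nuclei 132 and 108 CPM. The OVA to PBS log2 ratio in fibroblast-gated nuclei was 0.17 (0.00–0.33), and it turned to -0.10 as a mean over single nuclei and -0.018 after thinning.

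The regions of Hsd11b1 differed by start. The region at 193242629, chr1:193242053-193242933, had 303 and 424 counts in fibroblast-gated nuclei, 52.6 and 47.2 normalised counts. Monocyte/macrophage-gated nuclei were close, with 38.9 and 46.2 normalised counts, and ILC2-gated nuclei had 6.64 and 4.41, so that a promoter open in both gates went with RNA levels that differed by more than their counting error. Pericyte-gated nuclei had 0 counts there in both libraries although they ranked second in RNA.

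Other starts of Hsd11b1 followed other gates. At the start of Hsd11b1-204, chr1:193239834-193240745, monocyte/macrophage-gated nuclei had 47 and 94 counts, 16.3-fold and 6.99-fold above the other gates. At the outermost start, of Hsd11b1-205 at 193264075 (chr1:193263533-193264505), ILC2-gated nuclei had 64 and 61 counts, 22.4 and 14.1 normalised counts, 10.9-fold and 4.36-fold. Of the 25 Hsd11b1 regions tested, 8 were open in fibroblast-gated nuclei, against 14.9% of all regions, among them one in an intron of the neighbouring Lamb3 (chr1:193316835-193317823, 239 and 343 counts, 21.9-fold and 16.3-fold) and one at the start of the overlapping same-strand gene Gm38118 (chr1:193261767-193262755, 97 and 220 counts, 19.3-fold and 21.5-fold). In AT1-gated nuclei the whole window had 170 normalised counts in PBS and 255 in OVA, a log2 ratio of 0.58 (0.33–0.84), where 8 and 10 Hsd11b1 UMIs were counted.

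Hsd11b2, the inactivating enzyme (chr8:105518755-105523988, plus strand), was hardly detected: 1 UMI in fibroblast-gated nuclei of PBS, 1 in pericyte-gated nuclei of OVA and 0 in the other ranked gates. In the OVA library a count of 0, read as a floor of 3 counts, allows up to 4.76 CPM in the ILC2 gate and 3.72 CPM in the AT2 gate. Its start nevertheless lay in open chromatin, chr8:105518550-105519429, with 138 and 202 counts in ILC2-gated nuclei, 48.2 and 46.8 normalised counts, 2.35-fold and 2.60-fold above the other gates. AT2-gated nuclei had 28.6 and 39.2 normalised counts, and the other gates 10.4 to 25.5. Of the 32 regions tested near this gene, 6 were open in myofibroblast-gated and 4 in pericyte-gated nuclei, against 4.99% and 3.97% of all regions.

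**Figure D3:**
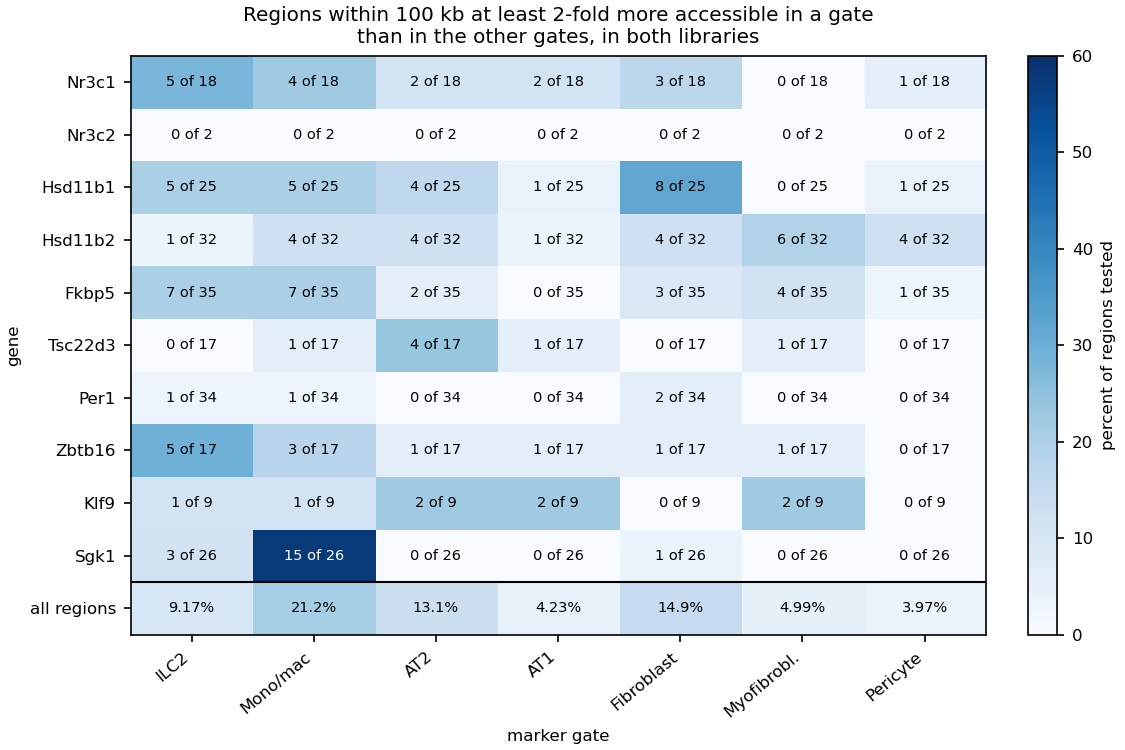
Heat map of the share of each member's tested regions that were at least 2-fold more accessible in a gate than in the other gates in both libraries, with the count written in each cell and the share of all regions in the bottom row. Sgk1 had 15 of 26 regions open in monocyte/macrophage-gated nuclei and Hsd11b1 had 8 of 25 open in fibroblast-gated nuclei.

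Fkbp5 encodes a co-chaperone that binds the receptor complex and lowers its affinity for hormone, and its induction by glucocorticoid closes a feedback loop (chr17:28399094-28517527, minus strand). Its level was highest in myofibroblast-gated nuclei, 474 CPM (44 UMIs) in PBS and 520 CPM (126 UMIs) in OVA, above the next gate by log2 ratios of 1.12 (0.55–1.67) and 1.14 (0.85–1.42). The ILC2 gate, highest in receptor RNA, was not among the high gates for this target: it had 168 and 178 CPM, a log2 ratio of 0.08 (-0.44 to 0.63). Fibroblast-gated nuclei went from 186 to 235 CPM (0.34, 0.09–0.59) and AT2-gated nuclei from 54.3 to 92.9 CPM on 36 and 75 UMIs (0.78, 0.18–1.39).

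The regions of Fkbp5 were divided among gates. ILC2-gated and monocyte/macrophage-gated nuclei had 7 open regions each of 35 tested, against 9.17% and 21.2% of all regions. The most selective ILC2 region, chr17:28612416-28613382, lay 94.9 kb away in an intron of Srpk1, with 65 and 114 counts, 37.8-fold and 73.3-fold above the other gates, while chr17:28421075-28421454 had 82 and 68 counts in AT2-gated nuclei, 12.6-fold and 25.5-fold. Genes named only by clone overlap Fkbp5 on the same strand, and UMIs shared with them cannot be assigned with certainty.

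Tsc22d3, which encodes the leucine zipper protein GILZ, a mediator of anti-inflammatory glucocorticoid effects (chrX:140539528-140600659, minus strand), was again highest in myofibroblast-gated nuclei, at 258 CPM (24 UMIs) and 252 CPM (61 UMIs). The distance to the next gate was within counting error in PBS (log2 1.20, -0.06 to 2.66) and beyond it in OVA (1.50, 0.95–2.04). The other ranked gates lay between 50.8 and 112 CPM, and in fibroblast-gated nuclei the OVA to PBS log2 ratio was 0.05 (-0.34 to 0.45). Of 17 regions tested, 4 were open in AT2-gated nuclei, against 13.1% of all regions, and 0 in ILC2-gated nuclei.

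Per1 encodes a period protein of the circadian clock that is also induced by glucocorticoid (chr11:69095217-69109960, plus strand). In PBS it was highest in ILC2-gated and in OVA in myofibroblast-gated nuclei (86.1 and 157 CPM). ILC2-gated nuclei had 112 and 155 CPM, fibroblast-gated nuclei 98.3 and 127 CPM, monocyte/macrophage-gated nuclei 89.0 and 98.3 CPM, and AT2-gated nuclei 76.9 and 79.3 CPM. Pericyte-gated nuclei had 48.2 and 87.8 CPM. In PBS ILC2-gated nuclei stood above AT1-gated nuclei, the lowest, 3.03-fold (log2 interval 0.58–2.71), but no neighbours in the order differed beyond counting error, and in OVA only fibroblast-gated nuclei did, from monocyte/macrophage-gated nuclei (log2 0.37, 0.05–0.70). The ratio was above 0 in fibroblast-gated nuclei (0.37, 0.03–0.72) and within counting error in ILC2-gated nuclei (0.47, -0.15 to 1.13). AT1-gated nuclei went from 12 to 56 UMIs, 36.9 to 84.7 CPM. The chromatin near Per1 was accessible in all 7 gates, with 780 to 989 normalised counts in the whole window and 53.1 to 112 at the promoter printed above. Another Per1 promoter, chr11:69099902-69100201, lies just downstream, so counts at the printed promoter are not credited to it alone. Of the 34 regions tested, 13 held a transcript start of any gene, Per1 included. Of all 36 regions in the window, 3 lay within 1 kb of a Per1 start. The share of all regions given next was not matched for starts. Few regions set a gate apart: in 30 of 34 no gate was at least 2-fold above the others in both libraries, against 38.1% of all regions. An exception was chr11:69078586-69079478, with 80 and 116 counts in monocyte/macrophage-gated nuclei, 7.72-fold and 6.06-fold above the other gates and lower in OVA (-0.55, -0.97 to -0.12).

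Zbtb16 encodes PLZF, a zinc finger transcription factor needed by innate lymphoid precursors and induced by glucocorticoid in several tissues (chr9:48654297-48836222, minus strand). Myofibroblast-gated nuclei had 592 and 792 CPM, fibroblast-gated nuclei 434 CPM (420 UMIs) and 709 CPM (1702 UMIs), and ILC2-gated nuclei 416 CPM (104 UMIs) and 528 CPM (333 UMIs). AT1-gated nuclei had 259 and 348 CPM, AT2-gated nuclei 113 CPM (75 UMIs) and 234 CPM (189 UMIs), and monocyte/macrophage-gated nuclei were lowest with 43.1 CPM (15 UMIs) and 15.8 CPM (17 UMIs). Myofibroblast-gated and fibroblast-gated nuclei differed beyond counting error in PBS (log2 0.45, 0.01–0.85) but not in OVA (0.16, -0.06 to 0.38).

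Between libraries Zbtb16 had intervals above 0 in 4 of the gates where it was counted. The ratio was 1.05 (0.66–1.46) in AT2-gated, 0.71 (0.55–0.86) in fibroblast-gated, 0.43 (0.06–0.81) in AT1-gated and 0.34 (0.02–0.68) in ILC2-gated nuclei, all higher in OVA. In the same order of gates 23.5%, 15.7%, 18.2% and 26.1% of all genes had intervals above 0. Myofibroblast-gated nuclei, where Zbtb16 was also counted, had a ratio of 0.42 with an interval that included 0 (-0.02 to 0.88). Relative to the median gene of the gate the intervals in AT1-gated (-0.05 to 0.69) and ILC2-gated nuclei (-0.12 to 0.53) included 0. Monocyte/macrophage-gated nuclei went the other way (-1.45, -2.54 to -0.35) on 15 and 17 UMIs, too few to be counted. Pericyte-gated nuclei were higher in OVA (1.33, 0.17–2.72) on 7 and 45 UMIs, also too few. Over the alternatives the AT2 ratio ran from 0.71 to 1.30. The median gene of the AT2 gate was higher in OVA by 0.11, and mitochondrial UMIs went from 35.8% to 23.6% there. In these nuclei the summed monocyte/macrophage list went from 576 to 815 CPM (C1qa, Chil3, Siglecf, Itgax and Ms4a4c at 0), the myofibroblast list from 475 to 192 CPM and the pericyte list from 317 to 58.2 CPM. Whether these moved the Zbtb16 ratio was not tested.

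Of 17 Zbtb16 regions tested, 5 were open in ILC2-gated nuclei, against 9.17% of all regions. The most selective were the intronic regions chr9:48806440-48807181 (57 and 83 counts, 25.5-fold and 22.5-fold), chr9:48804158-48805032 (41 and 53 counts, 14.9-fold and 18.2-fold) and chr9:48794824-48795929 (45 and 75 counts, 10.9-fold and 18.4-fold). At the start itself, monocyte/macrophage-gated nuclei were lowest with 13.7 and 17.9 normalised counts against 36.2 to 63.6 in the other gates, the same gate that was lowest in RNA. In myofibroblast-gated nuclei the window went from 148 to 204 normalised counts (0.46, 0.13–0.80).

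**Figure D4:**
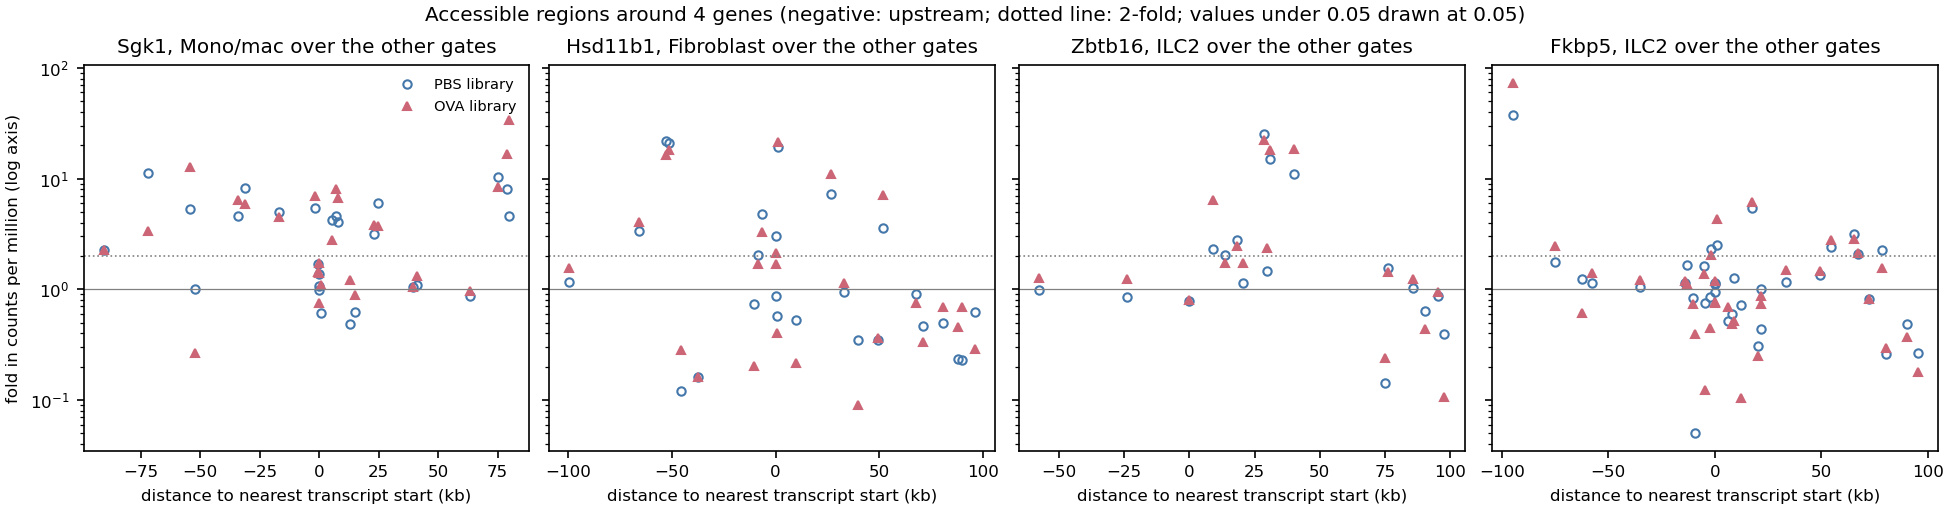
Fold of normalised counts in 1 gate over the other gates (log axis) against the distance of each region from the nearest start in kb, for Sgk1 in the monocyte/macrophage gate, Hsd11b1 in the fibroblast gate and Zbtb16 and Fkbp5 in the ILC2 gate, with circles for PBS and triangles for OVA. The most selective ILC2 region of Fkbp5 lay 94.9 kb upstream (37.8-fold and 73.3-fold), and that of Zbtb16 inside the gene at 28.8 kb (25.5-fold and 22.5-fold).

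Klf9 encodes a Krüppel-like factor that responds rapidly to glucocorticoid and thyroid hormone (chr19:23141226-23168134, plus strand). It was highest in myofibroblast-gated nuclei, at 420 and 367 CPM, followed by AT1-gated nuclei at 277 and 325 CPM, and lowest in monocyte/macrophage-gated nuclei at 31.6 and 22.3 CPM. Myofibroblast-gated and AT1-gated nuclei differed beyond counting error in PBS (log2 0.60, 0.02–1.16) but not in OVA (0.17, -0.20 to 0.54). ILC2-gated nuclei had 116 and 84.1 CPM. The gates whose OVA to PBS ratios could be counted had intervals around 0, namely AT1 (0.23), AT2 (0.12), fibroblast (-0.09) and myofibroblast (-0.19) on the log2 scale. Its window in myofibroblast-gated nuclei was less accessible in OVA, 240 against 337 normalised counts (-0.49, -0.74 to -0.23). The peaks there covered 11636 bases in PBS and 10351 in OVA, and per kb of peak the log2 ratio was -0.32. A region 98.3 kb upstream, chr19:23041742-23042969, had 37 and 43 counts in AT1-gated nuclei, 14.7-fold and 22.6-fold above the other gates. Of its 9 regions tested, 2 were open in AT1-gated nuclei and 2 in myofibroblast-gated nuclei, against 4.23% and 4.99% of all regions.

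Sgk1 encodes a kinase that acts on sodium transport and is induced through both receptors (chr10:21882184-21999903, plus strand). Monocyte/macrophage-gated nuclei led with 175 CPM (61 UMIs) in PBS and 224 CPM (242 UMIs) in OVA, above the next gate, ILC2 (60.02 and 71.4 CPM), by log2 ratios of 1.54 (0.71–2.47) and 1.65 (1.19–2.15). The OVA to PBS ratio there was 0.36 (-0.05 to 0.79), and it turned to -0.12 when nuclei over 40% mitochondrial UMIs were left out. In the mast cell or basophil gate Sgk1 had 158 and 154 CPM.

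The chromatin near Sgk1 was most often open in the same gate. Of its 26 regions tested, 15 were open in monocyte/macrophage-gated nuclei, against 21.2% of all regions. Those regions included chr10:21946355-21947484 (100 and 191 counts, 8.27-fold and 5.92-fold), chr10:21976001-21976980 (81 and 195 counts, 5.41-fold and 6.91-fold) and chr10:22073826-22074421 at the start of Gm2539 (28 and 111 counts). The promoter printed above, with the full response element, had counts in every gate: it had 86.6 and 81.3 normalised counts in monocyte/macrophage-gated nuclei, 59.6 and 52.3 in AT2-gated and 49.3 and 49.6 in ILC2-gated nuclei, and the other ranked gates had 43.6 to 112. Another Sgk1 promoter, chr10:21994416-21994715, lies just downstream on the same strand, so these counts are not credited to the printed promoter alone.

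Over all members, 30 of 70 pairs of gene and gate had at least 100 UMIs over both libraries and were counted. No pericyte pair did. Of the 30, 1 was at least 2-fold higher in OVA (Zbtb16 in AT2-gated nuclei) and 0 at least 2-fold lower, a difference that few genes reached. Of all genes 4.25% were higher and 1.25% lower by that much in the ILC2 gate, 2.43% and 2.5% in the monocyte/macrophage gate, 1.76% and 0.948% in the AT2 gate, 0.657% and 0.202% in the AT1 gate, 0.569% and 0.667% in the fibroblast gate, 1.1% and 0.945% in the myofibroblast gate and 3.26% and 1.63% in the pericyte gate. The interval lay above 0 for 10 pairs and below 0 for 1. In the same order of gates 26.1%, 23.5%, 23.5%, 18.2%, 15.7%, 11.8% and 14.1% of all genes lay above 0, and 10.8%, 10.6%, 8.7%, 8.9%, 8.63%, 6.46% and 8.15% below. With mitochondrial UMIs in the denominator, 14 pairs lay above 0 and 0 below, and relative to the median gene of each gate 6 and 2. In ILC2-gated nuclei, where Nr3c1 had a ratio of 0.77, the counted targets had 0.34 (Zbtb16), 0.47 (Per1) and 0.08 (Fkbp5), and of these Zbtb16 had an interval above 0. With all gene UMIs in the denominator Per1 lay above 0 too (0.10–1.38), and relative to the median gene none of the 3 did.

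**Figure D5:**
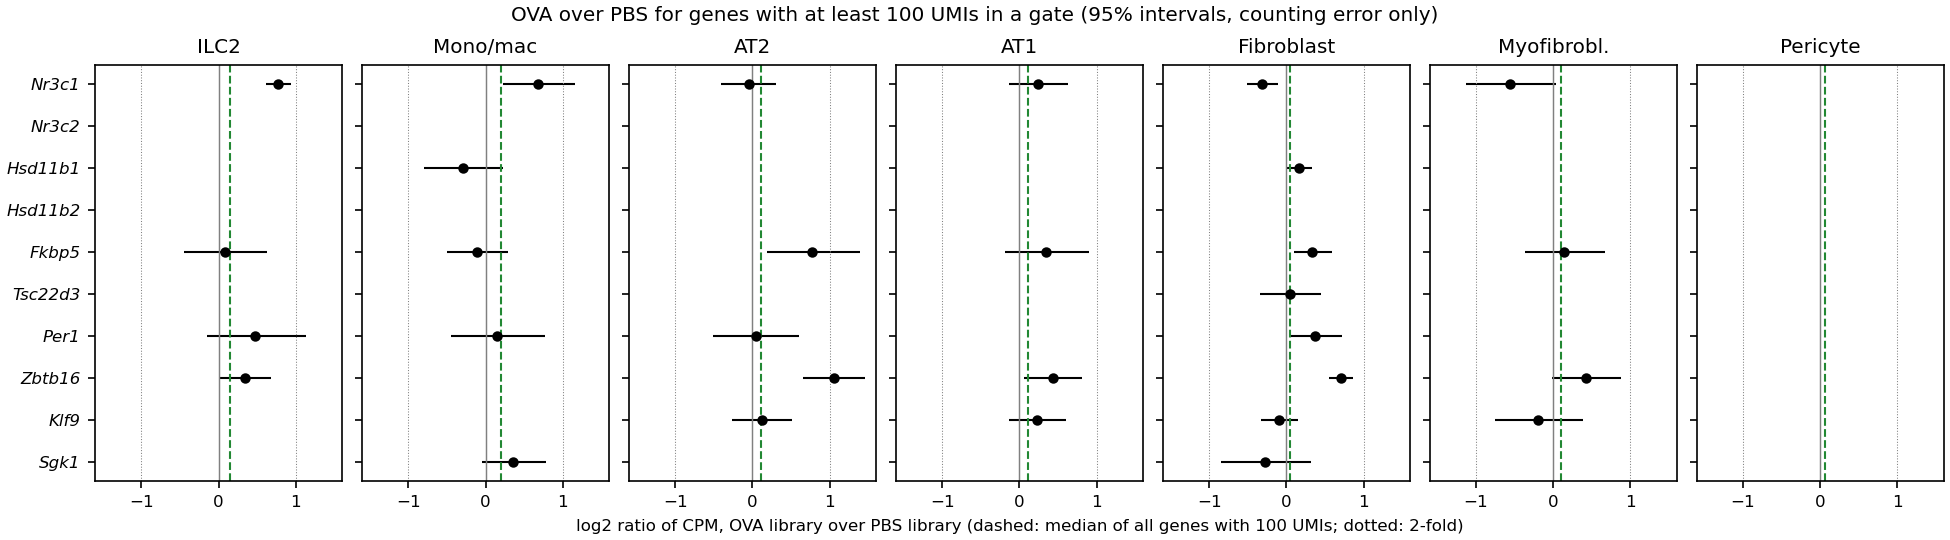
OVA to PBS log2 ratio of each member and gate with at least 100 UMIs over both libraries, with exact 95% intervals for counting error. Nr3c1 in ILC2-gated nuclei (0.77) and Zbtb16 in AT2-gated (1.05) and fibroblast-gated nuclei (0.71), and Fkbp5 in AT2-gated nuclei (0.78), lay farthest above 0, and Nr3c1 in fibroblast-gated nuclei (-0.31) lay below it.

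Over the same 14 points the correlation of Nr3c1 with the targets was 0.48 for Per1, 0.46 for Zbtb16, 0.19 for Fkbp5, 0.12 for Tsc22d3, 0.03 for Sgk1 and -0.03 for Klf9, while Zbtb16 and Klf9 went together (0.74) and Klf9 and Sgk1 apart (-0.79). The gene most like Hsd11b1 was Cacna1d (0.90), that most like Klf9 was Lamc1 (0.99), a laminin subunit gene, that most like Tsc22d3 was Htra1 (0.93) and that most like Zbtb16 was Prickle1 (0.89). Sgk1 was followed most closely by Plcg2, a phospholipase of immune receptor signalling, and Cd300lf, a myeloid inhibitory receptor (0.96 each), Fkbp5 by Gas7 (0.91) and Per1 by Ptbp2 (0.88).

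Other genes of the pathway were read from 5 lists that held 71 genes. The lists were chosen with earlier results of these data known, so an excess in them over all genes is not independent of these data. Among the receptor chaperones, 2 of 6 measured genes in ILC2-gated nuclei had intervals below 0 and 1 above, beside 10.8% and 26.1% of all genes. Their median log2 ratio there was -0.31, beside 0.15 for all genes. In fibroblast-gated nuclei 3 of 10 chaperones lay above 0 and 0 below, beside 15.7% and 8.63% of all genes. The median there was 0.14, beside 0.05 for all genes. Receptor cofactors had 1 of 9 above 0 in ILC2-gated, 4 of 10 in monocyte/macrophage-gated and 3 of 10 in AT2-gated nuclei, beside 26.1%, 23.5% and 23.5% of all genes, with 0 below in each of them.

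Other known glucocorticoid targets lay above 0 for 6 of 16 measured genes in AT2-gated nuclei and 7 of 16 in fibroblast-gated nuclei, 0 below in both, beside 23.5% and 15.7% of all genes above. Their median log2 ratios were 0.34 and 0.19, beside 0.11 and 0.05 for all genes. In monocyte/macrophage-gated nuclei 2 of 12 lay above and 4 below, beside 23.5% and 10.6% of all genes, and in ILC2-gated nuclei 1 of 5 above and 1 below, beside 26.1% and 10.8%. Genes of sodium transport had 3 of 6 measured members above 0 in AT2-gated and 2 of 8 in AT1-gated nuclei, beside 23.5% and 18.2% of all genes, with 0 below, and of the steroid supply genes at most 2 were measured in a gate.

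Of 198 measured pairs of list gene and gate, 4 were at least 2-fold higher in OVA and 0 at least 2-fold lower, beside 4.25% and 1.25% of all genes in the ILC2 gate and 1.76% and 0.948% in the AT2 gate, which held those 4. With a minimum of 30 UMIs, 9 of 316 pairs were higher and 8 lower by that much. The share of all genes past 2-fold was not computed at that minimum, so these counts have no background. Abcb1b, a drug and steroid efflux transporter gene, went from 100 CPM (25 UMIs) to 244 CPM (154 UMIs) in ILC2-gated nuclei, a log2 ratio of 1.29 (0.67–1.96). In AT2-gated nuclei Ppargc1a, a coactivator gene of mitochondrial biogenesis, went from 205 to 473 CPM (1.21, 0.92–1.50) and Anxa1, which encodes the anti-inflammatory protein annexin A1, from 127 to 305 CPM (1.27, 0.90–1.64). Mertk, a receptor gene of efferocytosis that was also a macrophage gate marker, went from 51.3 to 111 CPM in the same nuclei (1.12, 0.54–1.74).

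For single regions of the members, libraries differed about as often as elsewhere. In ILC2-gated nuclei 12 of 132 member regions with at least 30 counts had intervals above 0 and 12 below, beside 9.35% and 7.8% of all regions, and in fibroblast-gated nuclei 19 of 164 lay above and 16 below, beside 12.5% and 9.97%.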

How the data were processed

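One PBS and one OVA multiome library were analysed. The authors deposited filtered feature-barcode matrices of UMI counts per gene and transposition-event counts per peak, made per library with Cell Ranger ARC 2.0.1 on mm10 per the submitters' processing notes; peaks were called separately in each library. Counts were used as deposited. Barcodes under 200 genes or over 60% mitochondrial UMIs were left out, which kept 4572 PBS and 5246 OVA nuclei. No doublet caller was run, and gated nuclei may hold a few markers of another type. Counts were summed per gate. The rule for combining markers was set after marker detection was seen. Peaks of both libraries were joined where they overlapped and annotated with GENCODE M21. Intervals are exact and at 95% (Poisson for levels, Clopper-Pearson for shares, conditional binomial for ratios) and cover counting error only. No test across libraries was possible.

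The members and lists were chosen with earlier results of these data known. Named list genes are those at least 2-fold apart with at least 100 UMIs, and the likeness of genes was Pearson's r over log2 CPM in 14 sums. Python 3.11.15, numpy 2.4.6, scipy 1.17.1, pandas 2.3.3 and matplotlib 3.10.9 were used, and ratios were tested on simulated data. Alternatives changed the scaling, filters, gate, minimum count, window and peak overlap. RefSeq promoters of Nr3c1, Hsd11b2 and Zbtb16 were not used here.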

Additional observations from a re-analysis of the deposited data

Results flagged for a closer look

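Nr3c1 moved in opposite ways in different gates under the same contrast. The OVA to PBS log2 ratio was 0.77 (0.61–0.93) in ILC2-gated and 0.68 (0.23–1.16) in monocyte/macrophage-gated nuclei but -0.31 (-0.51 to -0.11) in fibroblast-gated nuclei. With 1 library per group the difference between gates was not tested, nor was the part of the marker shifts within these gates. Over the alternatives the ILC2 ratio stayed between 0.62 and 1.01, the monocyte/macrophage ratio between 0.29 and 0.93, and the fibroblast ratio between -0.41 and -0.12, the last with all gene UMIs in the denominator, where its interval included 0 (-0.32 to 0.08).

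The mast cell or basophil gate, too small for the rankings, held members above the level that a count of 0 allows. Nr3c1 had 1042 CPM in PBS and 1157 CPM in OVA, Per1 had 164 CPM in OVA and Sgk1 had 154 CPM in OVA. The gate held 43 PBS and 89 OVA nuclei, which also carried the ILC2 marker list at 4865 and 7204 CPM.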

How the results depend on the processing

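No paired analysis was possible because PBS and OVA each had only 1 library. Of 270 alternative OVA to PBS ratios of members, 254 stayed within the counting interval, 14 moved outside it and 2 of those with an interval away from 0 changed sign: Hsd11b1 in fibroblast-gated nuclei (0.17) became -0.10 as a mean of single-nucleus CPM and -0.018 after thinning to 500 UMIs. Nr3c1 in ILC2-gated nuclei (0.77) became 1.01 with all gene UMIs in the denominator, 0.93 after thinning and 1.01 with the joint filter on RNA and chromatin counts. The count of pairs at least 2-fold higher in OVA, 1, became 3 with all gene UMIs, 2 with the joint filter and 4 with a minimum of 30 UMIs (1 pair was then at least 2-fold lower), and 0 relative to the median gene, as a mean of single-nucleus CPM, after thinning, with the looser gate, without Gm42418 and AY036118 and with a minimum of 300 UMIs. The shares of all genes past 2-fold were not computed under these alternatives. The log2 distance of a member's highest gate from the next moved in 4 of 112 alternatives, all after thinning. Of 75 shares, 46 moved when nuclei were thinned to 300 UMIs instead of 500, and of 38 alternative list medians 23 moved, 19 of them with all gene UMIs. Of 260 alternative accessibility ratios, 26 moved and 3 changed sign, all in monocyte/macrophage-gated nuclei: Hsd11b2 (-0.12) became 0.022 in a 10 kb window, and Sgk1 (0.13) became -0.028 in that window and -0.030 with peaks of at least 50 counts. Depth limits the members under 100 UMIs: the pericyte ratios, the Nr3c2 and Hsd11b2 ratios and the monocyte/macrophage ratio of Zbtb16 were not counted.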

Other observations

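Nuclei that no gate took, 2108 in PBS and 1821 in OVA, also held the axis genes. Nr3c1 had 248 CPM in PBS and 265 CPM in OVA there, and Zbtb16 had 253 and 281 CPM, Fkbp5 204 and 227 CPM and Klf9 196 and 186 CPM. Hsd11b1 had 116 and 98.0 CPM, Per1 110 and 116 CPM, Tsc22d3 90.3 and 79.8 CPM and Sgk1 83.7 and 102 CPM. Nr3c2 had 18.2 and 24.3 CPM (42 and 76 UMIs), against 15.1 and 13.6 CPM in AT2-gated nuclei, its highest ranked gate, and Hsd11b2 had 1 UMI in each library.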
